A study of Arabidopsis thaliana with 8 samples.

Results

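The WRKY transcription factors are a plant family named after the amino acids at the start of their DNA-binding domain. Here they were taken as 56 genes chosen by locus identifier, and each is represented by a single probe. They are 56 of 25665 loci on the array. The choice went by family membership and was made with earlier results of these data known. The RefSeq gene table names 13 further WRKY genes that were not members. All 13 are on the array, 8 could be tested and 0 passed the limma threshold, the smallest adjusted p being 0.063 for WRKY19.

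WRKY proteins bind the W-box, a short promoter element, and act as activators or repressors. Most are known from responses to pathogens, salicylic acid, wounding, heat and nutrient shortage, where MAP kinases phosphorylate some of them and VQ-motif proteins bind others. A smaller number act in development, in trichomes, seed coats, stem pith, leaf senescence and the time of flowering. The family is divided by the number of its domains and the form of its zinc finger into group I, subgroups IIa to IIe and group III.

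The study profiled RNA from entire Arabidopsis thaliana seedlings, with 4 Agilent one-colour arrays for the voz1 voz2 double mutant and 4 for wild type Col-0. The mutant is labelled as the same cultivar, Col-0, and the alleles of voz1 and voz2 are not given in the sources used here. Plants of both genotypes were 14 days old, untreated and grown on agar with Murashige and Skoog medium at 22 °C under 16 h of light and 8 h of dark. VOZ1 and VOZ2 are NAC-related transcription factors that bind phytochrome B and act in flowering. Nothing in the labels says that replicates were grown separately, so the p-values rest on a spread that may be technical.

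Per array, 60.3% to 70.2% of probes exceeded background clearly, and no spot was saturated. VOZ2 fell by 5.74 on the log2 scale (SE 0.27) and VOZ1 fell by 1.5 (SE 0.13), with limma adjusted p of 1e-04 and 0.0015, with every mutant array below every wild type array. The place of the probes relative to the mutations is not stated in these sources. The arrays lay on 2 slides, each holding 2 arrays of each genotype. The labelled tissue was checked with 7 shoot and 11 root markers. All 11 root markers were well above background on all 8 arrays, and so were 4 of the shoot markers (LHCB1.3, LHCB2.1, GL1 and FIL). RBCS1A, RCA and CA1 had no value on some arrays because of outlier flags. The root markers' summed linear signal was 37.6 to 43.9 in the mutant and 30.2 to 44.2 in wild type, and that of the 4 complete shoot markers was 5.62 to 6.96 and 6.35 to 9.23 in the same order. These sums overlapped between genotypes and are carried by the brightest probes. By gene, 9 of 11 root markers had a difference above 0, 4 of them at an unadjusted p under 0.05 and 2 with no overlap, and the median was 1.01. Of the 7 shoot markers 5 were below 0, 1 of them (LHCB1.3) at an unadjusted p under 0.05 and 1 (RBCS1A, with a value on 1 wild type array) with no overlap, and the median was -0.34. Over all genes tested 47.2% were above 0. At an unadjusted p under 0.05 in limma, 11.7% were higher and 11.8% lower. With no overlap, 8.47% were higher and 7.85% lower.

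All 56 WRKY genes passed the filter, which asked for 4 or more arrays well above background and which 81.4% of the loci passed, and 49 of them were above it on all 8. The 7 exceptions were WRKY13, WRKY30, WRKY38, WRKY50, WRKY58, WRKY59 and WRKY62. Levels are the log2 processed signal minus the array's 75th percentile. They compare arrays for 1 gene and not genes with each other. Differences are voz1 voz2 minus wild type on the log2 scale.

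In voz1 voz2 seedlings a single WRKY gene passed the test. With limma, 1 of the 56 genes rose (1.79%, against 2.72% of the 24592 genes tested) and 0 fell (against 1.72%), so that 4.44% of all genes changed in either direction at a Benjamini-Hochberg adjusted p under 0.05. At an unadjusted p under 0.05, 4 members were higher and 7 lower, or 7.14% and 12.5%, against 11.7% and 11.8% of all genes. The median difference over the 56 was -0.00089, against -0.030 over all genes, with 28 members above 0 (47.2% of all genes were) and 28 below. For 28 members the 95% interval of the difference lay within 1 log2 unit of 0, which leaves a change of 2-fold or more outside it, and 61.1% of all genes had such an interval. The intervals of the other 28 reached past that bound. With the replicate number as a block, which pairs the arrays, WRKY44 was again the single call upward (against 6.74% of all genes) and 2 members were called lower (against 6.75%), WRKY47 and WRKY26. With slide as a block the calls were WRKY44 upward (against 8.15% of all genes) and WRKY47, WRKY26 and WRKY2 downward (against 7.97%).

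**Figure D1:**
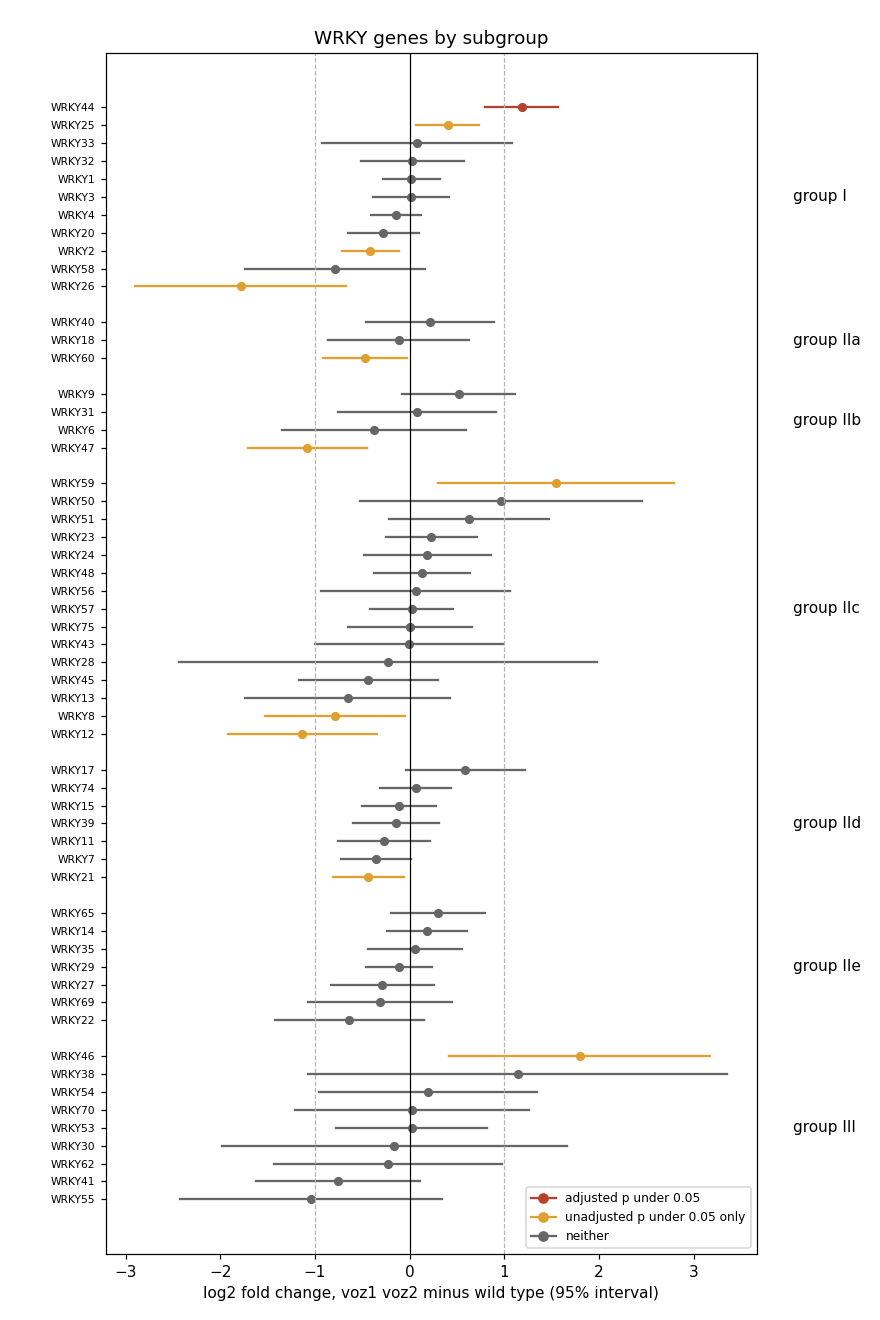
Log2 fold change of the 56 WRKY genes, voz1 voz2 minus wild type, with 95% intervals from limma, by subgroup. Dashed lines mark 1 log2 unit. WRKY44 at 1.18 is the single gene past the adjusted threshold, and the 3 widest intervals are those of WRKY38, WRKY28 and WRKY30.

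WRKY44 (AT2G37260), better known as TTG2, was the gene that rose. It acts in trichome outgrowth and in the tannin and mucilage of the seed coat, downstream of the MYB, bHLH and WD40 complex around TTG1. Its level was -1.98, -2.06, -1.59 and -1.86 on the mutant arrays 1 to 4, against -2.82, -2.91, -3.32 and -3.16 on the wild type arrays. Every mutant value lay above every wild type value. The difference was 1.18 (SE 0.17, 95% interval 0.79 to 1.57, limma adjusted p = 0.0101), or 2.27-fold. Within slide 1 it was 1.28 and within slide 2 it was 1.08. The call held without any single array (adjusted p 0.0176 to 0.0349). With normexp background correction the difference was 0.76 and no longer passed (adjusted p = 0.189).

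The genes around TTG2 did not all move with it. This list of 9 was added after the values were seen, 8 could be tested, and TT8 was the only call. In limma 3 of the 8 were higher and 0 lower at an unadjusted p under 0.05, against 11.7% and 11.8% of all genes. Differences were above 0 for 5 and below 0 for 3, with a median of 0.53. TT8, the bHLH factor of the seed coat and anthocyanin pathway, rose by 2.07 (SE 0.16, limma adjusted p = 0.0012), and with normexp it had 1.15 (adjusted p = 0.153). TTG1, the WD40 protein itself, had -0.29 (adjusted p = 0.32), and the bHLH genes GL3 and EGL3 had 0.54 and -0.21. GL2, a homeodomain regulator of trichomes and root hairs, had 0.53 (unadjusted p = 0.043, adjusted p = 0.197). Root non-hair cells also express TTG2. Of the 11 root markers 1 rose (against 2.72% of all genes), WOX5, whose call was lost whichever array was left out (adjusted p 0.066 to 0.126). At an unadjusted p under 0.05 in limma, 4 of the 11 were higher, against 11.7% of all genes. On wild type replicate 4 the root markers were lowest, at -1.67 relative to each gene's mean, against -0.31 to 0.28 on the other wild type arrays and 0.043 to 0.99 on the mutant arrays. Without wild type replicate 4 the WRKY44 difference was 1.15 (adjusted p = 0.0349). The part of the root markers in the WRKY44 result was not tested. In whole seedlings, more RNA per cell and more cells of an expressing type cannot be told apart.

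The other 10 group I genes carry 2 WRKY domains, like WRKY44. WRKY25, WRKY26 and WRKY33 are known as partners in heat tolerance, and WRKY33 also drives camalexin synthesis and resistance to necrotrophic fungi. WRKY26 (AT5G07100) had -2.13, -2.46, -2.45 and -0.39 in the mutant, against -0.23, -0.21, -0.53 and 0.67 in wild type. Mutant replicate 4 reached the wild type range, while the other 3 mutant arrays lay far below it. The difference was -1.78 (SE 0.49, limma adjusted p = 0.076). It passed with the replicate number as a block (adjusted p = 0.0172), with slide as a block (0.0392) and without mutant replicate 4, where it was -2.27 (adjusted p = 0.0146).

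WRKY25 (AT2G30250) had 0.60, 0.49, 0.83 and 0.97 in the mutant, against 0.26, 0.27, 0.33 and 0.40 in wild type. The genotypes did not overlap, as for 2 members in the upward direction (3.57%, against 8.47% of all genes). The difference was 0.40 (SE 0.15, limma adjusted p = 0.143). WRKY33 had 1.35, 1.24, 0.49 and 0.38 in the mutant, against 0.85, 1.10, -0.42 and 1.62 in wild type, a difference of 0.080 with a 95% interval of -0.92 to 1.08. The genotypes overlapped throughout, and the value was 0.71 within slide 1 and -0.55 within slide 2. On the same array, WRKY25 minus WRKY26 was 2.73, 2.95, 3.28 and 1.36 in the mutant, against 0.49, 0.48, 0.87 and -0.27 in wild type. That difference of log2 signals separated the genotypes on all 8 arrays. Since the pair was picked after its values were seen, it is a description. Among the other pairs looked at, WRKY17 minus WRKY11 also separated the genotypes. WRKY54 minus WRKY70, WRKY65 minus WRKY69 and WRKY54 minus WRKY55 did not.

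WRKY2 (AT5G56270), which acts in zygote polarity and in germination under abscisic acid, had -0.81, -0.90, -1.09 and -1.0 in the mutant, against -0.35, -0.64, -0.61 and -0.53 in wild type. All mutant values were below all wild type values, as for 5 members in that direction (8.93%, against 7.85% of all genes). The difference was -0.42 (SE 0.13, limma adjusted p = 0.108, and 0.0469 with slide as a block). WRKY4, which with WRKY3 contributes to resistance against necrotrophs, also separated the genotypes. It had -0.98, -1.09, -0.93 and -0.93 in the mutant, against -0.77, -0.86, -0.90 and -0.80 in wild type. Its difference was only -0.15 (SE 0.12, limma adjusted p = 0.480). WRKY3 had 0.014 and WRKY1 0.018, with 95% intervals of -0.39 to 0.42 and -0.28 to 0.32. WRKY32 and WRKY20 had 0.028 and -0.28, and WRKY58, a repressor in systemic acquired resistance, had -0.79 (adjusted p = 0.294).

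**Figure D2:**
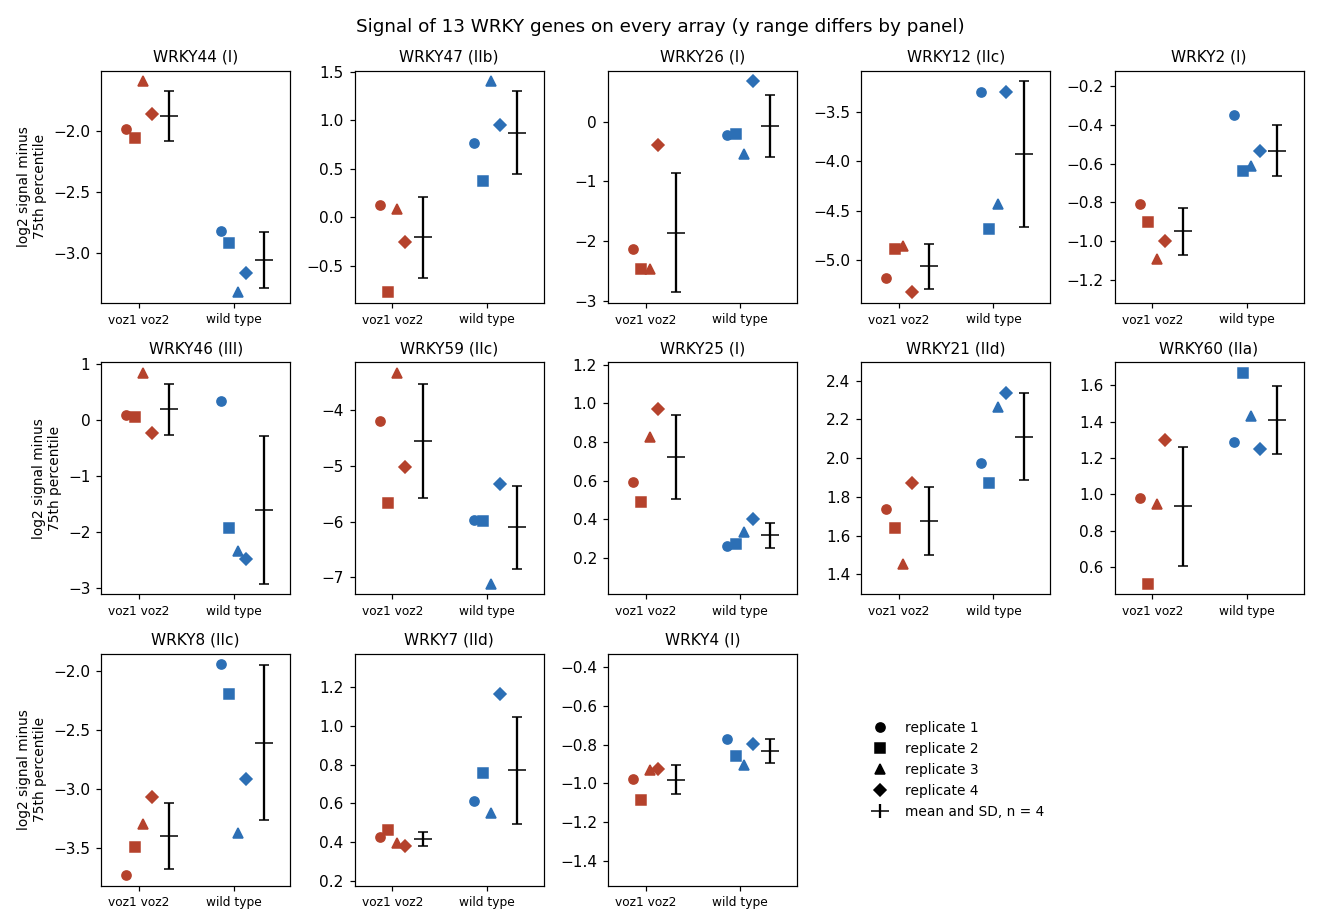
Log2 signal minus the array's 75th percentile for the 13 WRKY genes with an unadjusted p under 0.05 or with no overlap between genotypes. Each symbol is 1 array and bars are mean and SD of 4 arrays. WRKY44 is apart by 1.18, mutant replicate 4 stands alone for WRKY26 at -0.39, and wild type replicate 1 stands alone for WRKY46 at 0.34.

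Subgroup IIa holds WRKY18, WRKY40 and WRKY60, partly redundant repressors of basal defence and regulators of abscisic acid responses. None of the 3 passed. WRKY60 (AT2G25000) had 0.98, 0.51, 0.95 and 1.3 in the mutant, against 1.29, 1.67, 1.43 and 1.25 in wild type. One mutant array, replicate 4, lay within the wild type range. The difference was -0.47 (SE 0.19, limma adjusted p = 0.185). WRKY18 and WRKY40 had -0.12 and 0.22, with 95% intervals of -0.86 to 0.63 and -0.46 to 0.89.

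Among the 4 genes of subgroup IIb, WRKY47 (AT4G01720), known from the response to boron shortage, had the smallest p. Its level was 0.13, -0.78, 0.080 and -0.26 in the mutant, against 0.77, 0.37, 1.40 and 0.95 in wild type, with no overlap. The difference was -1.08 (SE 0.28, 95% interval -1.71 to -0.45, limma adjusted p = 0.064), or 2.11-fold lower. It was -0.98 within slide 1 and -1.18 within slide 2. It passed with the replicate number as a block (adjusted p = 0.0214), with slide as a block (0.0226), with array weights (0.0447) and without wild type replicate 2 (0.0442). WRKY6, a senescence factor that also represses the phosphate exporter gene PHO1, had -0.37 (adjusted p = 0.639). WRKY9 and WRKY31 had 0.52 and 0.079 (adjusted p = 0.270 and 0.923).

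Subgroup IIc, with 15 genes, held differences from -1.14 to 1.55 and 0 calls, against 4.44% of all genes called. At an unadjusted p under 0.05 in limma, 1 member was higher and 2 lower, against 11.7% and 11.8% of all genes. WRKY12 and WRKY13 are known for opposite effects on flowering time, and WRKY12 also keeps stem pith cells from forming secondary walls. WRKY12 (AT2G44745) had -5.18, -4.89, -4.86 and -5.33 in the mutant, against -3.30, -4.68, -4.43 and -3.30 in wild type. The genotypes did not overlap, with wild type replicates 2 and 3 close to the mutant values. The difference was -1.14 (SE 0.34, limma adjusted p = 0.097, and -1.39 at 0.0464 without wild type replicate 2). With normexp it was -0.37. WRKY13 had -0.65 (adjusted p = 0.442), with 0.11 within slide 1 and -1.42 within slide 2.

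WRKY8 (AT5G46350), which acts in salt and virus responses, had -3.73, -3.49, -3.30 and -3.07 in the mutant, against -1.94, -2.19, -3.38 and -2.92 in wild type. Its difference was -0.79 (SE 0.32, limma adjusted p = 0.187), wild type replicates 3 and 4 lying near or inside the mutant range. WRKY59 (AT2G21900) had -4.19, -5.66, -3.32 and -5.02 in the mutant, against -5.97, -5.98, -7.11 and -5.32 in wild type. The difference of 1.55 (SE 0.54, adjusted p = 0.136) was made of 2.79 on slide 1 and 0.31 on slide 2. With normexp it was 0.25 and did not pass. WRKY28, an activator of the salicylic acid synthesis gene ICS1, had -2.92, -2.57, -3.00 and -2.22 in the mutant, against -1.13, -1.89, -5.74 and -1.02 in wild type. Wild type replicate 3 lay far below the other 7 arrays for WRKY28. Its difference was -0.23 with an interval of -2.44 to 1.98, and without wild type replicate 3 it was -1.33 (adjusted p = 0.056).

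WRKY50 and WRKY51, which mediate the repression of jasmonate responses by salicylic acid, had 0.96 and 0.63 (limma adjusted p = 0.410 and 0.348). WRKY45 and WRKY75 regulate phosphate uptake and starvation responses. WRKY45 had 0.088, -0.64, 0.10 and 0.79 in the mutant, against 0.45, 0.020, 1.01 and 0.61 in wild type. The genotypes overlapped, and the difference was -0.44 (SE 0.32, limma adjusted p = 0.448). WRKY75 had 0.0059 (adjusted p = 0.993). WRKY75 also acts in senescence and flowering, and its 95% interval was -0.65 to 0.66. WRKY23, an auxin-responsive regulator in roots, had 0.23, and WRKY57, known from drought tolerance, had 0.022. WRKY24, WRKY43, WRKY48 and WRKY56 lay between -0.0077 and 0.18, none past the threshold.

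The 7 genes of subgroup IId encode calmodulin-binding WRKY proteins. Among them WRKY7, WRKY11 and WRKY17 are negative regulators of resistance to Pseudomonas syringae. WRKY21 (AT2G30590) had 1.74, 1.64, 1.45 and 1.87 in the mutant, against 1.97, 1.87, 2.27 and 2.34 in wild type. Mutant replicate 4 and wild type replicate 2 were nearly equal, and the difference was -0.44 (SE 0.16, limma adjusted p = 0.155). WRKY7 (AT4G24240) had 0.42, 0.46, 0.40 and 0.38 in the mutant, against 0.61, 0.76, 0.55 and 1.17 in wild type, with no overlap. Its difference was -0.36 (SE 0.16, adjusted p = 0.225). The close relatives WRKY17 and WRKY11 had 0.58 and -0.27 (adjusted p = 0.241 and 0.478). WRKY15, WRKY39 and WRKY74 lay between -0.14 and 0.063.

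In subgroup IIe, 0 of 7 genes had an unadjusted p under 0.05 with limma, where 11.7% of all genes were higher and 11.8% lower. WRKY22 and WRKY29, which act after the MAP kinase cascade of flagellin perception, had -0.64 and -0.11 (adjusted p = 0.302 and 0.70). WRKY22 had 1.42, 0.35, 0.60 and 0.80 in the mutant, against 1.12, 0.71, 1.89 and 1.99 in wild type, so the genotypes overlapped. WRKY65 had 1.35, 1.14, 1.66 and 1.11 in the mutant, against 1.04, 1.49, 0.92 and 0.60 in wild type. Wild type replicate 2 lay among the mutant values, and the difference was 0.30 (SE 0.22, limma adjusted p = 0.445). Its relative WRKY69 had -0.31. WRKY27, WRKY14 and WRKY35 had -0.29, 0.18 and 0.054. The interval of WRKY29, -0.47 to 0.24, was among those that stayed within 1 log2 unit.

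Group III, the defence and senescence clade closest to salicylic acid signalling, held 0 calls among 9 genes, against 4.44% of all genes called. WRKY46 (AT2G46400), which acts with WRKY53 and WRKY70 in defence and with WRKY54 and WRKY70 in brassinosteroid and drought responses, had 0.079, 0.051, 0.84 and -0.23 in the mutant, against 0.34, -1.94, -2.35 and -2.49 in wild type. The 4 mutant arrays were together above 3 wild type arrays, and wild type replicate 1 was inside the mutant range. The difference was 1.80 (SE 0.60, 95% interval 0.42 to 3.18, limma adjusted p = 0.123). Without wild type replicate 1 it was 2.45 and passed (adjusted p = 0.0104). With array weights it was 1.27 (adjusted p = 0.249).

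WRKY70 (AT3G56400), the best known switch between salicylic acid and jasmonate responses, had 2.44, 1.29, 1.45 and 0.46 in the mutant, against 2.59, 1.57, 0.37 and 0.99 in wild type. The difference was 0.028 with an interval of -1.21 to 1.26, and the genotypes overlapped completely. WRKY54, which shares much of its function with WRKY70, had 0.19 (interval -0.96 to 1.35). WRKY53, an activator of leaf senescence, had 0.020 (interval -0.78 to 0.82). WRKY54 and WRKY55 are neighbours on chromosome 2 with 0 genes between them in the RefSeq table, and WRKY55 had -1.04 (adjusted p = 0.335). WRKY41 had -0.76 and WRKY30, a fast responder to oxidative stress, had -0.16. WRKY38 and WRKY62, repressors of basal defence, had 1.14 and -0.23 (adjusted p = 0.518 and 0.836).

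Several group III genes varied widely between wild type arrays. WRKY38 had -3.97, -3.78, -3.50 and -3.89 in the mutant, against -2.12, -4.10, -7.05 and -6.43 in wild type. The mutant arrays were nearly equal (SD 0.21, n = 4), and the wild type arrays covered a wide range (SD 2.26, n = 4). WRKY38, WRKY30 and WRKY62 were each well above background on only 3 of the 4 wild type arrays. The part of signal near background in these spreads was not tested. The SD was larger in wild type for 8 of 9 group III genes, the exception being WRKY53, and the median SD was 0.49 in the mutant and 1.11 in wild type. For all 56 members the wild type SD was larger in 39 (69.6%, against 61.1% of 24589 genes), with median SDs of 0.38 in the mutant and 0.48 in wild type. Over all genes the median SDs were 0.29 and 0.33 in the same order. Single wild type arrays moved these counts. Without replicate 1 the wild type SD was larger for 5 of the 9 and their median was 0.60, and without replicate 3 it was larger for 5 of the 9 with a median of 1.04. For the family, the wild type SD was larger in 28 of 56 (50%) without replicate 3, against 49.2% of all genes. Wild type replicate 1 was the highest of the 8 arrays for 12 of 56 members (21.4%, against 7.88% of all genes) and for 4 of the 9. Wild type replicate 3 was the lowest for 15 of 56 members (26.8%, against 14.5% of all genes) and for 4 of the 9. It was also the array most often highest over all genes (23.6%, against 12.5% of members). Its share of probes clearly above background, 60.3%, was the smallest of the 8 arrays.

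**Figure D3:**
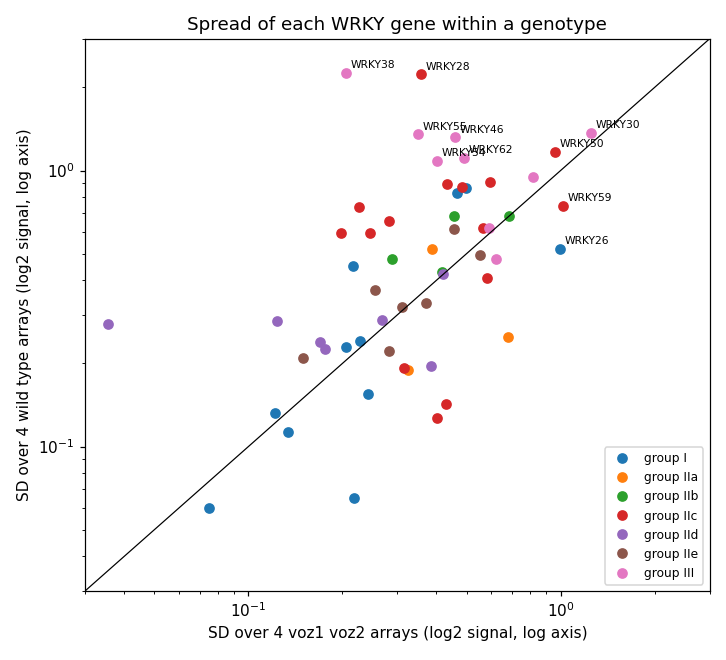
SD over 4 mutant arrays against SD over 4 wild type arrays for each of the 56 WRKY genes, on log axes with the line of equality. Of the 56, 39 lie above the line, and WRKY38 (SD 0.21 in the mutant and 2.26 in wild type) lies farthest above it among group III.

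Salicylic acid genes outside the family varied between the same arrays. Relative to each gene's own mean, the 9 group III genes averaged 0.069, 0.19, 0.14 and -0.18 on the mutant arrays 1 to 4, against 1.29, 0.25, -1.11 and -0.65 on the wild type arrays. The 9 genes of the salicylic acid list averaged -0.51, -0.079, -0.69 and 0.047 on the mutant arrays, against 1.21, 0.67, -0.96 and 0.31 on the wild type arrays. Wild type replicate 1 was highest and wild type replicate 3 lowest in both sets. The deviations from the genotype means correlated at 0.81 over the 8 arrays, which share 2 slides, and the wild type arrays had the largest deviations. This pattern was not limited to salicylic acid genes. The MAP kinase and VQ-motif list was also highest on wild type replicate 1 (0.25) and lowest on wild type replicate 3 (-0.39). With the deviations of the whole WRKY family, that list correlated at 0.80, the salicylic acid list at 0.77 and the camalexin list at 0.68. The pattern-triggered immunity, rapid stress, senescence and phosphate lists had 0.026, 0.21, -0.042 and -0.27. None of the 9 salicylic acid genes passed in limma, against 4.44% of all genes. At an unadjusted p under 0.05, 0 were higher and 1 lower, against 11.7% and 11.8% of all genes. The 1 was the glucanase gene PR2, at -3.31 (adjusted p = 0.124). PBS3, which conjugates glutamate to isochorismate, and EDS5, its precursor's transporter, had -0.78 and 0.49. PR1, the standard marker of the pathway, had -1.26 (adjusted p = 0.551).

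**Figure D4:**
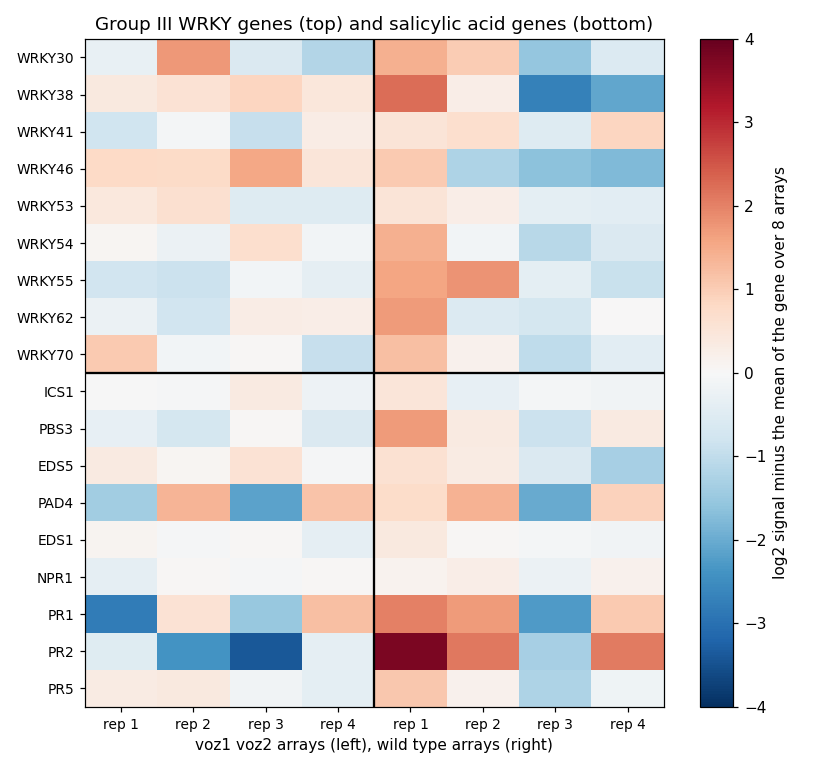
Log2 signal of each gene minus its mean over 8 arrays, for the 9 group III WRKY genes above the line and 9 salicylic acid genes below it, mutant arrays on the left and wild type arrays on the right. The set averages reach 1.29 and 1.21 on wild type replicate 1 and -1.11 and -0.96 on replicate 3.

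Genes that act before or with WRKY proteins showed no call either. Of the 18 MAP kinase and VQ-motif genes, 16 were tested and 0 passed in limma, against 4.44% of all genes. At an unadjusted p under 0.05, 2 were higher and 2 lower, against 11.7% and 11.8% of all genes, and the median was 0.017. MPK6, a kinase that phosphorylates WRKY33, had 1.99, 1.44, 1.94 and 1.56 in the mutant, against 2.30, 2.04, 2.65 and 2.37 in wild type. The genotypes did not overlap, and the difference was -0.60 (SE 0.19, adjusted p = 0.107). With no overlap, 1 of the 16 was higher and 2 lower, against 8.47% and 7.85% of all genes. The VQ-motif genes IKU1, CAMBP25 and VQ12 had -0.55, 0.56 and 0.66 (adjusted p = 0.066, 0.105 and 0.156).

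The other 5 lists hold genes of pathways that WRKY proteins are known to act in, and their counts stand beside 2.72% of all genes called higher and 1.72% called lower. Nothing about a list of 7 to 10 genes is read from a single call. Of the 7 camalexin genes 0 passed in limma. At an unadjusted p under 0.05, 0 were higher and 2 lower, against 11.7% and 11.8% of all genes. CYP71A13, an early camalexin enzyme, had -1.87 (adjusted p = 0.073), and CYP71A12, its near relative, had -2.36 (adjusted p = 0.181). GSTF6 and CYP79B2 had 1.12 and 0.71 (adjusted p = 0.284 and 0.32). Among 10 genes of pattern-triggered immunity 1 fell and the median was -0.47. The receptor gene EFR fell by 1.42 (SE 0.28, adjusted p = 0.0308), at -3.83 to -2.54 in the mutant and -1.99 to -1.39 in wild type. That call was lost when any of 6 arrays was left out, all except mutant replicate 4 and wild type replicate 2 (adjusted p 0.051 to 0.086), and with normexp (-0.82). The chitin receptor gene CERK1 and the glucosinolate enzyme gene CYP81F2 had -0.33 and -0.66 (adjusted p = 0.221 and 0.222). FRK1, a marker downstream of WRKY22 and WRKY29, had -2.17 (adjusted p = 0.222) in a fit that dropped wild type replicate 1 for an outlier flag.

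Rapid stress genes are induced by many stimuli together with WRKY33, WRKY40 and WRKY53. Of 22 genes 4 rose and 0 fell, with a median of 0.44. The zinc finger genes ZAT10 and ZAT12 rose by 1.48 and 1.39 (adjusted p = 0.0303 and 0.0147), ERF105 rose by 1.80 (0.034) and the calmodulin-like gene TCH2 by 1.2 (0.034). The genotypes did not overlap for any of these 4, which were picked by their calls, so the lack of overlap adds no support. Over all genes, 8.47% were higher with no overlap. WRKY33, WRKY40 and WRKY53, which were not picked by a call, had 0.080, 0.22 and 0.020. Single arrays ended each call. ZAT12 lost it without mutant replicate 3 (adjusted p = 0.0506), ZAT10 when a mutant array or wild type replicate 1 was left out (0.057 to 0.081), and ERF105 and TCH2 when any of 6 arrays was left out, all except mutant replicate 3 and wild type replicate 2 (0.0501 to 0.099). With normexp 1 of the 4, ZAT12, still passed.

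Of 9 senescence genes, which WRKY6, WRKY53, WRKY54 and WRKY70 regulate, 8 were tested and 1 fell. NAP, a NAC factor that promotes leaf senescence, had 0.64, 1.09, 0.48 and 0.99 in the mutant, against 2.02, 2.35, 2.01 and 2.57 in wild type. It fell by 1.43 (SE 0.20, limma adjusted p = 0.0093), a call that held without any single array but not with normexp (-1.40, adjusted p = 0.106). SEN1, a dark-inducible senescence gene, had 0.026, 0, -0.90 and 3.99 in the mutant, against 3.44, 4.23, 4.48 and 5.33 in wild type, so that mutant replicate 4 was apart from the other mutant arrays as it was for WRKY26. Its difference was -3.59 (adjusted p = 0.077). SAG101 and SEN4 had 0.37 and -0.46 with no call. Of 9 phosphate genes 1 rose, PHO2, the ubiquitin-conjugating enzyme gene that restrains phosphate uptake, by 1.26 (SE 0.15, adjusted p = 0.0049). The phosphate starvation genes RNS1, a ribonuclease, and PS2, a phosphatase, had 2.03 and 1.21 (adjusted p = 0.076 and 0.259), and PHR1, the central regulator, had -0.25. The roles of WRKY proteins named for these lists are background, and no link between a WRKY gene and a listed gene was tested.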

How the data were processed

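Per the submitters' processing notes, the deposited spot intensity values were read with Agilent Feature Extraction 9.1.3.1, and their processed signal is background-subtracted. The authors' deposited table holds natural log values, which match the processed signal's natural log after a constant of 6.42 (wild type) or 6.91 (mutant) is taken away, and served only as an alternative. The members and lists were chosen with earlier results of these data known.

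Outlier-flagged spots (9 to 111 per array) and control spots were left out. Log2 processed signals were averaged per probe, each array's 75th percentile was subtracted, and probes clearing background in 4 or more arrays were tested. The probe with the highest mean stood for a locus, and a probe naming no locus stood alone, which gave 24592 features, called genes here. limma 3.58.1 (lmFit and eBayes, R 4.3.3) gave differences, Benjamini-Hochberg adjusted over all genes, and was tested on simulated data. Precision is limited by the number of arrays. The files gave no mean signal, so normexp (offset 50) used the median spot signal.

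Members past the threshold, with an unadjusted p under 0.05 or with no overlap, and the brightest probe of each subgroup, were given array by array, and WRKY22, WRKY28 and WRKY38 were added after their values were seen. From each list up to 4 genes with the smallest p were named. Gene symbols follow RefSeq or common use, and subgroups are the usual classification. Deviations of same-numbered arrays correlated at 0.32, 0.51, 0.46 and 0.61, against 0.27 to 0.54 for other pairs on a slide. Only replicate 4 lay above that range, so these values do not establish pairing by number. The labels state no block, the main fit had none, and the replicate block was an alternative. Alternatives were other scalings, filters, variance models, blocks, single slides and each array left out.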

Additional observations from a re-analysis of the deposited data

Results flagged for a closer look

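Of 112 groups of 4 arrays (56 genes in each genotype), 3 had 1 array whose gap to the nearest other array exceeded Dixon's 95% critical value, as a share of the range, and chance flags about 1 in 20 groups. WRKY26 on mutant replicate 4 was at -0.39, against -2.46 to -2.13 on the other mutant arrays. WRKY51 on mutant replicate 3 was at -2.37, against -3.53 to -3.44 on the others. WRKY20 on wild type replicate 2 was at 0.08, against 0.36 to 0.40 on the others. The cause was not tested.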

How the results depend on the processing

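The 13 WRKY genes with an unadjusted p under 0.05 or no overlap kept their sign under each alternative that tested them (WRKY59 did not pass the filter of all 8 arrays), and 27 of the 56 members turned sign under at least 1, with 0 calls in the other direction. The count of 1 higher was 0 with normexp, normexp with slide as a block (added after seeing the data), the deposited table, and slide 1 or slide 2 alone, and 1 to 2 without single arrays, WRKY46 joining without wild type replicate 1. The count of 0 lower was 1 with array weights, 2 with the replicate block, 3 with slide as a block and 0 to 2 without single arrays, with WRKY26 called when mutant replicate 4 was left out, and WRKY47 and WRKY12 when wild type replicate 2 was. WRKY44 had 0.76 with normexp (adjusted p = 0.055 with slide as a block), and 0.84 in the deposited table. The family median of -0.00089 was -0.12 with median scaling, which moves every gene alike, -0.34 in the deposited table, whose constants differ between genotypes, and -0.16 to 0.047 without single arrays. The 7 calls of the 7 related lists became 2 with normexp, 0 in the deposited table, 3 with no filter, 15 with slide or the replicate block, 0 on either slide alone and 3 to 8 without single arrays. Calls over all genes rose with the blocks too. From 2.72% higher and 1.72% lower they went to 8.15% and 7.97% with slide, and 6.74% and 6.75% with the replicate block. Among members, the replicate block changed only the calls of WRKY47 and WRKY26. Signs turned for WRKY33 (-0.036 with median scaling, -0.26 in the deposited table, -0.55 on slide 2 and -0.32 to 0.36 without single arrays), WRKY70 (-0.088, -0.31, -0.41 and -0.32 to 0.43 on the same terms, and -0.42 with array weights) and WRKY65 (-0.038 in the deposited table). On a single slide, with 2 arrays per genotype, VOZ2 did not pass either (-5.56 at adjusted p = 0.0736 and -5.93 at 0.0754), so the lost calls there say nothing about stability. Other causes were not tested. WRKY12 had -0.37 with normexp, against -1.14 in the main fit, and WRKY59 had 0.25, against 1.55. The cause of these shifts was not tested.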
